A study of Homo sapiens with 6 samples.

Results

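Base excision repair of oxidised DNA was followed through 10 genes, OGG1, MUTYH, NTHL1, NEIL1, NEIL2, NEIL3, APEX1, NUDT1, XRCC1 and PARP1. They were chosen by name for their role in this pathway, and all 10 were found among the 23686 genes of the deposited tables and had enough reads to be tested. RNA from 6 samples of HEK293, an established human embryonic kidney line, was sequenced. The sampled cells expressed green fluorescent protein (GFP) and were collected by fluorescence-activated sorting. For the co-culture group, 3 samples were kept together for 10 h with other HEK293 cells, which carried DAAO (the usual short form of D-amino acid oxidase) and made reactive oxygen species (ROS), and the D-alanine dose in the label is 25 µM. The control group held 3 samples of sorted GFP-positive cells, titled Wt (wild type) controls. The labels give the same treatment text to all 6 samples, so whether the controls received D-alanine or partner cells is not given in the sources used here, and the medium was high-glucose DMEM with serum in both groups. The promoter of the DAAO construct, the number of clones and whether the samples were separate cultures are not given either, so p-values measure the spread between these samples.

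Base excision repair removes damaged bases that do not strongly bend the DNA helix, and oxidised guanine is its best known substrate. A glycosylase cuts the base out, an endonuclease nicks the strand at the abasic site, and a polymerase and a ligase fill and close the gap while PARP1 and XRCC1 hold the broken strand for repair. A sanitising enzyme, NUDT1, acts before this by destroying oxidised nucleotides so that they are not built into DNA. Hydrogen peroxide, the product of D-amino acid oxidase, is a classical source of such damage. The counts measure transcripts, not protein or repair activity, and in bulk samples fewer cells of a type and less RNA per cell cannot be told apart.

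The promoters of 4 members are shown. OGG1, MUTYH and XRCC1 were the members whose groups did not overlap, and NUDT1 starts almost back to back with another gene. Promoter sequence was not tested against the changes in level. Each line gives the 250 bases before a RefSeq start (GRCh38.p14), read 5′ to 3′ on the gene's strand, with every match to the searched motifs in capitals. For MUTYH and NUDT1, which have 3 and 2 windows in that table, the window nearest to the start of the neighbouring gene is shown.
OGG1, chr3:9749702-9749951, plus strand: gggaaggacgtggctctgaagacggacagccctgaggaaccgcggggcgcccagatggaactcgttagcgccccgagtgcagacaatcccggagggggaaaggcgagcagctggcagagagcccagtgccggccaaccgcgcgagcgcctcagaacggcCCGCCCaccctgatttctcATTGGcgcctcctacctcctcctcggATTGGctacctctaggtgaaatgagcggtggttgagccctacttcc
MUTYH, chr1:45340121-45340370, minus strand: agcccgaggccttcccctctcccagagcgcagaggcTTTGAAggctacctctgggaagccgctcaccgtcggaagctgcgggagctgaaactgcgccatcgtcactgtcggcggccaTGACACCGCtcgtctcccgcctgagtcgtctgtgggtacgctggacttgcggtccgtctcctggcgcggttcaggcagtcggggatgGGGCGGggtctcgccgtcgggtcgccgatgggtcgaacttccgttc
XRCC1, chr19:43575528-43575777, minus strand: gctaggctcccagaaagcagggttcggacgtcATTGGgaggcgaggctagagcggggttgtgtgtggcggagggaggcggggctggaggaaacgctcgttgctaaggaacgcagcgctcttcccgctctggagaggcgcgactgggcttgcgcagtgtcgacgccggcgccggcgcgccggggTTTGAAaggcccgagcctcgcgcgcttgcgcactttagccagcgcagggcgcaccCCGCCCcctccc
NUDT1, chr7:2241976-2242225, plus strand: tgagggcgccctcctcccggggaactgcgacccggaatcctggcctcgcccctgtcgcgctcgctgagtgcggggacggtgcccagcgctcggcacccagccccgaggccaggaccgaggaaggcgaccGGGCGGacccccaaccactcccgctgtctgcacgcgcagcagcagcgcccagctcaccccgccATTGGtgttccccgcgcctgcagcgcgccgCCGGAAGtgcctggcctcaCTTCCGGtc

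The motifs were searched on both strands in 14 windows of 9 members, and overlapping matches were kept. NEIL2 has no window in these counts. The core of the antioxidant response element, TGACNNNGC, which NRF2 is known to bind, was in 2 windows (MUTYH and NTHL1), against 10.9% of all 35116 windows of the table. GGGCGG, the GC box, was in 10 windows against 42.6%, and CCAAT was in 8 windows against 32%. The ETS motif CCGGAAG was in 2 windows (NTHL1 and NUDT1) against 8.52% and the E-box CACGTG in 3 against 6.34%. TTTGAA, the cell cycle homology region, was in 3 windows (MUTYH, NEIL3 and XRCC1) against 13.3%, and GGCGGGAA, an E2F motif, in 0 against 2.72%. Several starts of 1 gene are counted as separate windows, and a match is a description of letters, not of binding.

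Libraries held between 19091085 and 36250314 gene-assigned reads. CPM values below are counts scaled to a common library total after scaling by trimmed means of M-values (TMM), and 1 read was worth 0.0279 to 0.0522 CPM. HEK293 markers VIM, NEFL, NEFM, INA, LIN28B and PAX2 were present in every library. VIM and INA were higher in co-culture (log2 fold change 0.40 and 0.38, edgeR adjusted p 0.00793 and 0.0118). NEFL, NEFM, LIN28B and PAX2 did not pass an adjusted p of 0.05, at 0.28, 0.12, -0.11 and -0.24. Markers of blood, liver and endothelial cells (PTPRC, ALB, CD34, PECAM1 and CD3E) summed to between 0.200 and 0.665 CPM, with CD3E at 0 reads in all 6. The endogenous oxidase gene DAO also had 0 reads in all 6 libraries, which allows up to 0.0838 to 0.156 CPM by counting error alone and says nothing of a transgene with another sequence. Reads opposite to the annotated strand, as a median share over 4931 genes with at least 1000 reads in each library, made up 0.124% and 0.211% in co-culture libraries 2 and 3 and between 1.57% and 1.76% in the other 4, which are co-culture library 1 and the controls. Values from a fit with this strand class as a batch term, in which co-culture library 1 alone carries the contrast with the controls, are given below as the class-adjusted values. Of the 7 members with at least 60 opposite-strand reads in all, such reads were higher in every co-culture library than in every control for 2 (NEIL1 and NEIL2) and lower for 1 (XRCC1), against 1.71% and 18.5% of the 7241 genes with as many. Both shares were taken over libraries of unlike strand class, so they are not an even reference for either direction.

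None of the 10 members passed an adjusted p of 0.05 in edgeR's quasi-likelihood test, where 4.83% of the 14582 tested genes did. At an unadjusted p under 0.05 there were 3 members, MUTYH higher and OGG1 and XRCC1 lower in co-culture, against 23.2% of all genes. The same 3 were the members whose groups did not overlap in CPM, against 29.3% of all genes. With DESeq2 the number at an adjusted p under 0.05 was 1, XRCC1 (7.52% of genes with an adjusted p), and with limma-voom it was 0. Over the 10 members the median log2 fold change was 0.075 and the median absolute change 0.16, beside -0.0022 and 0.13 over all tested genes. The 95% intervals of the 10 fold changes, each taken alone, all lay between 0.723 and 1.48 times the control level, so a doubling or a halving was outside every interval.

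**Figure D1:**
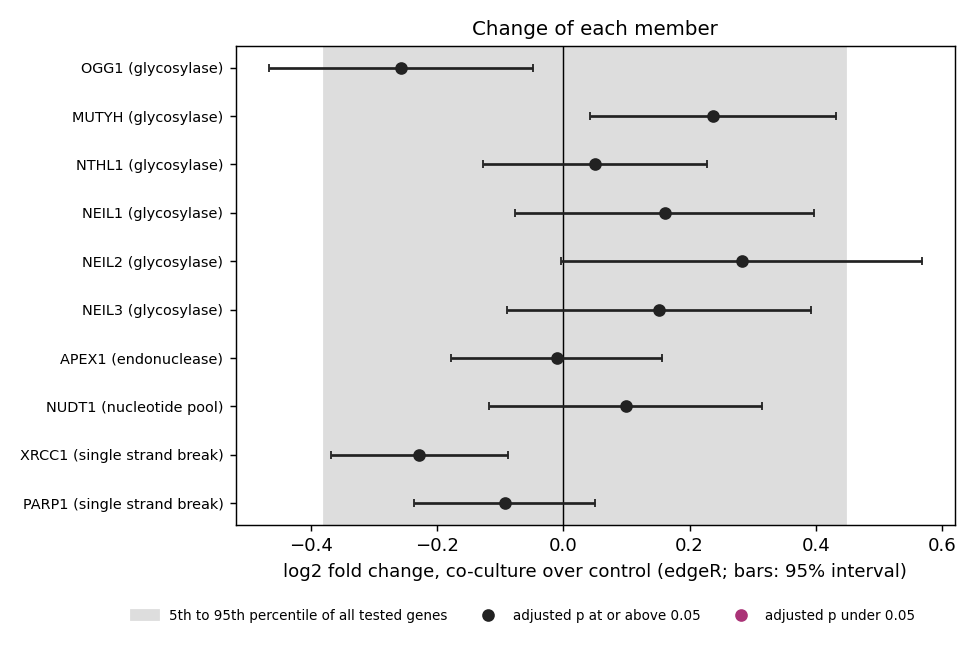
Log2 fold change of each member, co-culture over control, with its 95% interval from edgeR. The grey band spans the 5th to 95th percentile of all tested genes (-0.38 to 0.45), and all 10 point estimates lie inside it.

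The glycosylases were described first, since they recognise the damage. OGG1 excises oxidised guanine paired with cytosine. It stood at 17.2, 20.3 and 21.1 CPM in co-culture libraries 1, 2 and 3 and at 24.4, 24.2 and 21.9 CPM in controls 1, 2 and 3. All 3 co-culture values were below all 3 controls, but co-culture 3 and control 3 were close. The means were 19.6 ± 2.07 and 23.5 ± 1.34 CPM (SD, n = 3 each), with a log2 fold change of -0.26 (standard error 0.10; unadjusted p 0.0207 and adjusted p 0.137 by edgeR). It was negative in all 15 alternative fits, from -0.45 to -0.17, with adjusted p-values from 0.0945 to 0.413. Co-culture library 1 gave its lowest level: without that library the log2 fold change was -0.17, and the class-adjusted value, which rests on it, was -0.45 (edgeR adjusted p 0.234). OGG1 overlaps CAMK1 and TADA3 on the opposite strand in GENCODE release 29, and 27.1% of the reads over OGG1 lay on the strand opposite to it. The counts used here take the gene's own strand, and with strand ignored the log2 fold change was -0.22.

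MUTYH removes adenine that was wrongly paired with oxidised guanine, so it acts on the lesion that OGG1 has missed before replication. Its levels were 17.1, 18.8 and 17.4 CPM in co-culture libraries 1, 2 and 3 and 15.8, 15.1 and 14.4 CPM in controls 1, 2 and 3. Every co-culture library was above every control, with a gap smaller than the range within either group. The means were 17.8 ± 0.906 and 15.1 ± 0.717 CPM (SD, n = 3 each), with a log2 fold change of 0.24 (standard error 0.09; unadjusted p 0.0215 and adjusted p 0.140 by edgeR). It was positive in all 15 alternative fits, from 0.18 to 0.27, and passed in 1 of them, the fit without control 1 (0.27, adjusted p 0.0389 by edgeR; the 15 adjusted p-values ran up to 0.614). The class-adjusted value was 0.18 (edgeR adjusted p 0.614).

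The ratio of these partners does not depend on how libraries are scaled. For every 100 MUTYH reads there were 101, 108 and 121 OGG1 reads in co-culture libraries 1, 2 and 3 and 154, 160 and 153 in controls 1, 2 and 3. The groups were apart, with the closest pair at 121 and 153. That separation was fixed in advance, since OGG1 was lower and MUTYH higher in every co-culture library than in every control. This ratio was chosen after the values of both genes were seen and is given as a description, with no test. OGG1 took 15.5% to 18.5% of the reads of the 6 glycosylases in co-culture and 21.2% to 21.7% in the controls. The closest libraries were co-culture 3 at 18.5% (95% Wilson interval 17.32% to 19.7%) and control 3 at 21.2% (19.73% to 22.82%), so their counting intervals almost touched. MUTYH took 15.3% to 15.7% in co-culture and 13.6% to 14.0% in the controls, with counting intervals that overlapped between the groups. The summed level of the 6 glycosylases was 111, 120 and 114 CPM in co-culture libraries 1, 2 and 3 and 113, 111 and 103 CPM in controls 1, 2 and 3, with overlapping groups.

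NTHL1 removes oxidised pyrimidines such as thymine glycol. Its levels lay between 21.7 and 24.5 CPM in co-culture and between 21.6 and 22.7 CPM in the controls, and the groups overlapped. On the log2 scale the fold change was 0.051 (standard error 0.08, adjusted p 0.747 by edgeR), and its 95% interval ran from 0.916 to 1.17 times the control level.

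The NEIL proteins are glycosylases of the Fpg/Nei family that act on oxidised pyrimidines and ring-opened purines. All 3 had positive log2 fold changes that did not pass the test, with groups that overlapped because of 1 control each. NEIL1 stood at 18.4, 17.8 and 16.2 CPM in co-culture libraries 1, 2 and 3 and at 17.9, 14.8 and 14.2 CPM in controls 1, 2 and 3. Control 1 was as high as the co-culture libraries, and the log2 fold change was 0.16 (standard error 0.11, adjusted p 0.402 by edgeR). Without control 3 it was 0.090 (edgeR adjusted p 0.683). NEIL2, which favours lesions in bubbles and transcribed DNA, showed the same arrangement more sharply, at 11.4, 11.6 and 11.8 CPM in co-culture and 11.5, 8.50 and 8.75 CPM in controls 1, 2 and 3. The log2 fold change of 0.28 (standard error 0.13; unadjusted p 0.0524 and adjusted p 0.220 by edgeR) was the largest positive value among the members. Without control 1, NEIL1 had a log2 fold change of 0.27 (edgeR adjusted p 0.0499) and NEIL2 of 0.43 (edgeR adjusted p 0.00890). Over the 15 alternatives the adjusted p of NEIL1 lay between 0.0499 and 0.683, and that of NEIL2 between 0.00890 and 0.632. The class-adjusted values were 0.24 and 0.26 (edgeR adjusted p 0.577 and 0.632).

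NEIL3 is the member of this family that is tied to dividing cells, where it also unhooks crosslinked strands at replication forks. It stood at 25.5, 28.7 and 23.2 CPM in co-culture libraries 1, 2 and 3 and at 21.6, 26.7 and 21.4 CPM in controls 1, 2 and 3. Control 2 lay above 2 of the co-culture libraries, and the log2 fold change was 0.15 (standard error 0.11, adjusted p 0.438 by edgeR). With 1 library left out it ran from 0.070 (without co-culture 2) to 0.26 (without control 2), and over the 15 alternatives its adjusted p lay between 0.278 and 0.829. Beside it, the summed level of 20 G2/M genes was 5415 to 6004 CPM in co-culture and 5044 to 5511 CPM in the controls, and that of 19 S-phase genes was 3885 to 4103 and 3960 to 4057 CPM. Of the G2/M genes 2 passed the test, both higher, and of the S-phase genes 0 did. The shares over all tested genes were 2.66% higher and 2.17% lower. At an unadjusted p under 0.05 by edgeR there were 6 G2/M genes (5 higher, 1 lower) and 6 S-phase genes (4 higher, 2 lower), against 23.2% of all genes. The part of the cell cycle in the NEIL3 values was not tested.

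APEX1 is the main endonuclease for abasic sites and also a redox partner of transcription factors. Its levels were 127, 112 and 126 CPM in co-culture libraries 1, 2 and 3 and 111, 128 and 130 CPM in controls 1, 2 and 3. Each group held 1 low library and 2 high ones. The log2 fold change was -0.011 (standard error 0.08, adjusted p 0.948 by edgeR), with a 95% interval from 0.884 to 1.11 times the control level, and its sign changed in 4 of the 15 alternatives.

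NUDT1, also called MTH1, hydrolyses oxidised purine nucleotides in the nucleotide pool. It stood at 23.1, 25.8 and 28.0 CPM in co-culture libraries 1, 2 and 3 and at 22.9, 26.8 and 22.3 CPM in controls 1, 2 and 3. The groups overlapped over most of their range, with a log2 fold change of 0.099 (standard error 0.10, adjusted p 0.584 by edgeR), and the class-adjusted value was -0.056 (edgeR adjusted p 0.905). With 1 library left out it ran from 0.029 (without co-culture 3) to 0.18 (without control 2), with edgeR adjusted p-values of 0.910 and 0.409.

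XRCC1 is the scaffold on which DNA polymerase beta, DNA ligase III and end-cleaning enzymes gather at a broken strand. In GENCODE, which may differ from the annotation used for counting, XRCC1 overlaps the protein-coding gene L34079.1 on the same strand over 25782 bases. Strand cannot separate reads in such an overlap, and its part in the XRCC1 counts was not tested. XRCC1 levels were 81.8, 81.3 and 91.2 CPM in co-culture libraries 1, 2 and 3 and 98.3, 98.2 and 102 CPM in controls 1, 2 and 3. The controls were tightly grouped, and all co-culture libraries lay below them. The means were 84.8 ± 5.59 and 99.4 ± 2.10 CPM (SD, n = 3 each), which gives a log2 fold change of -0.23 (standard error 0.06) and a 95% interval from 0.775 to 0.941 times the control level. It had the smallest p of the members (edgeR p 0.00424 and adjusted p 0.0643). It passed in 3 of the 15 alternatives, with DESeq2 (-0.23, adjusted p 0.0453), with total counts in place of TMM (-0.26, edgeR adjusted p 0.0341, where 6.05% of genes passed) and without control 1 (-0.24, edgeR adjusted p 0.00875). Its sign was negative in all 15, from -0.28 to -0.20, with adjusted p-values from 0.00875 to 0.307, the highest being the class-adjusted one at -0.28.

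PARP1 senses broken strands and builds poly(ADP-ribose) that recruits XRCC1. It was the most abundant member, at 1048, 989 and 1068 CPM in co-culture libraries 1, 2 and 3 and 1057, 1135 and 1120 CPM in controls 1, 2 and 3. Control 1 fell within the co-culture range, and the log2 fold change was -0.093 (standard error 0.07, adjusted p 0.422 by edgeR), with a 95% interval from 0.849 to 1.04 times the control level, although between 20820 and 38220 reads per library lay on the gene. Without co-culture 2 the log2 fold change was -0.060 (edgeR adjusted p 0.775).

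**Figure D2:**
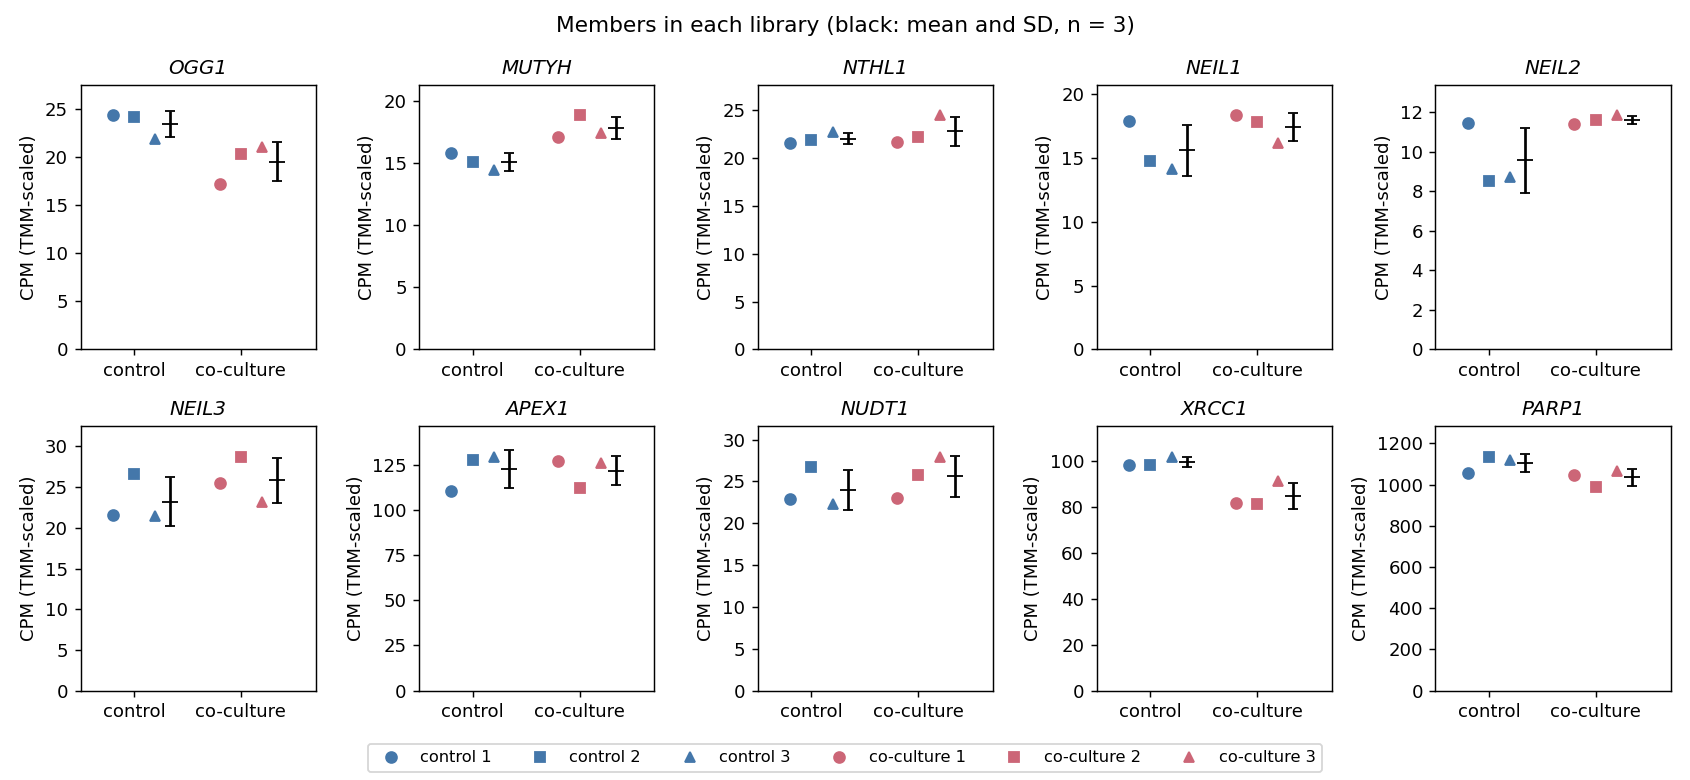
CPM (TMM-scaled, linear axis from 0) of the 10 members in each of the 6 libraries, with the mean and SD of 3 libraries in black. The groups are apart for OGG1, MUTYH and XRCC1, and control 1 sits with the co-culture libraries for NEIL1 and NEIL2.

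Control 1 decided most of the calls that other settings gave. Without it, 4 members passed an adjusted p of 0.05, MUTYH, NEIL1 and NEIL2 higher and XRCC1 lower, while 20.8% of all tested genes passed in that fit. With any 1 of the other 5 libraries left out, 0 members passed. In those fits the genes that passed ran from 65 of 14766 tested (without control 2) to 735 of 14711 tested (without control 3). In the class-adjusted fit, where the contrast rests on co-culture library 1, 0 members passed, as did 0.199% of all genes (29). At an unadjusted p under 0.05 there were 2 members in that fit, OGG1 and XRCC1, both lower, against 12.5% of all genes.

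**Figure D3:**
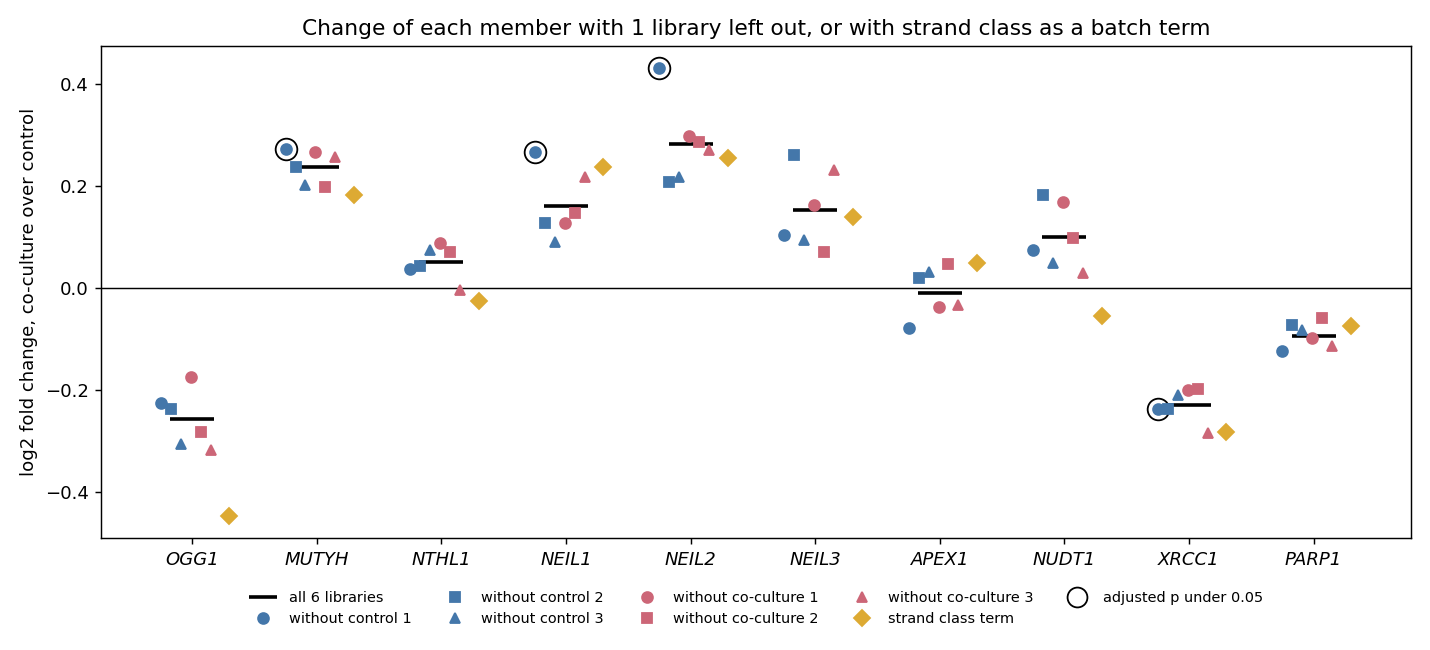
Log2 fold change of each member with all 6 libraries (black bar), with each library left out in turn, and with strand class as a batch term. Circled points have an adjusted p under 0.05, and all 4 of these are fits without control 1.

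Levels of different genes were compared per kilobase of the principal GENCODE release 29 transcript, in CPM per kb. In the controls the order was PARP1 at 279, APEX1 at 82.7, XRCC1 at 35.5, NUDT1 at 33.6, NTHL1 at 20.7, OGG1 at 10.6, NEIL3 at 9.64, MUTYH at 8.21, NEIL1 at 4.16 and NEIL2 at 3.58 CPM per kb. The ranges of 3 neighbouring pairs overlapped: XRCC1 with NUDT1, OGG1 with NEIL3, and NEIL1 with NEIL2. Damage-specific glycosylases were at the low end and the general factors for abasic sites and broken strands at the high end. In co-culture the first 2 and the last 2 places were held by the same genes. XRCC1 at 30.3 CPM per kb stood below NUDT1 at 35.9, and OGG1 at 8.81 stood below NEIL3 at 10.7 and MUTYH at 9.67, with overlapping ranges between NUDT1 and XRCC1, NEIL3 and MUTYH, MUTYH and OGG1, and NEIL1 and NEIL2. Transcript lengths come from an annotation that may differ from the one used for counting, so the order is approximate.

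Of the members, 4 lie head to head with another gene on the opposite strand, so the starts of each pair are close together. In RefSeq the closest starts are 21 bases apart for NUDT1 and MRM2, 50 for MUTYH and TOE1, 151 for NTHL1 and TSC2, and 414 for APEX1 and OSGEP. None of the 4 neighbours passed the test, with 0 at an unadjusted p under 0.05 as well. MRM2 alone had groups that did not overlap in CPM, lower in co-culture (54.8 to 59.0 against 59.1 to 65.8 CPM in the controls). In GENCODE release 29, MUTYH overlaps TOE1 over 801 bases and NTHL1 overlaps TSC2 over 402 bases, on opposite strands. Reads opposite to the gene made up 7.29% over MUTYH and 6.15% over TOE1. TOE1, a nuclease that trims small RNAs, had a log2 fold change of -0.13 (standard error 0.08, adjusted p 0.398 by edgeR) where MUTYH had 0.24. For every 100 TOE1 reads there were 69.0, 85.2 and 71.7 MUTYH reads in co-culture libraries 1, 2 and 3 and 66.0, 57.3 and 52.5 in controls 1, 2 and 3. These did not overlap, although co-culture 1 and control 1 were close. APEX1 had 447, 423 and 435 reads per 100 reads of OSGEP, a gene for tRNA modification, in co-culture and 461, 478 and 465 in the controls, also without overlap. OSGEP itself had a log2 fold change of 0.095 (standard error 0.08, adjusted p 0.517 by edgeR). The ratios of NTHL1 to TSC2, which were 22.2 to 23.1 in co-culture and 23.0 to 23.2 in the controls, overlapped. So did those of NUDT1 to MRM2, which encodes a ribosomal RNA methyltransferase, at 39.3 to 47.4 and 33.9 to 44.6. For comparison, 29.3% of all tested genes had groups that did not overlap in CPM, and MUTYH and MRM2 were themselves among them. No such share was taken over other gene pairs, and the ratios to neighbours were not tested.

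**Figure D4:**
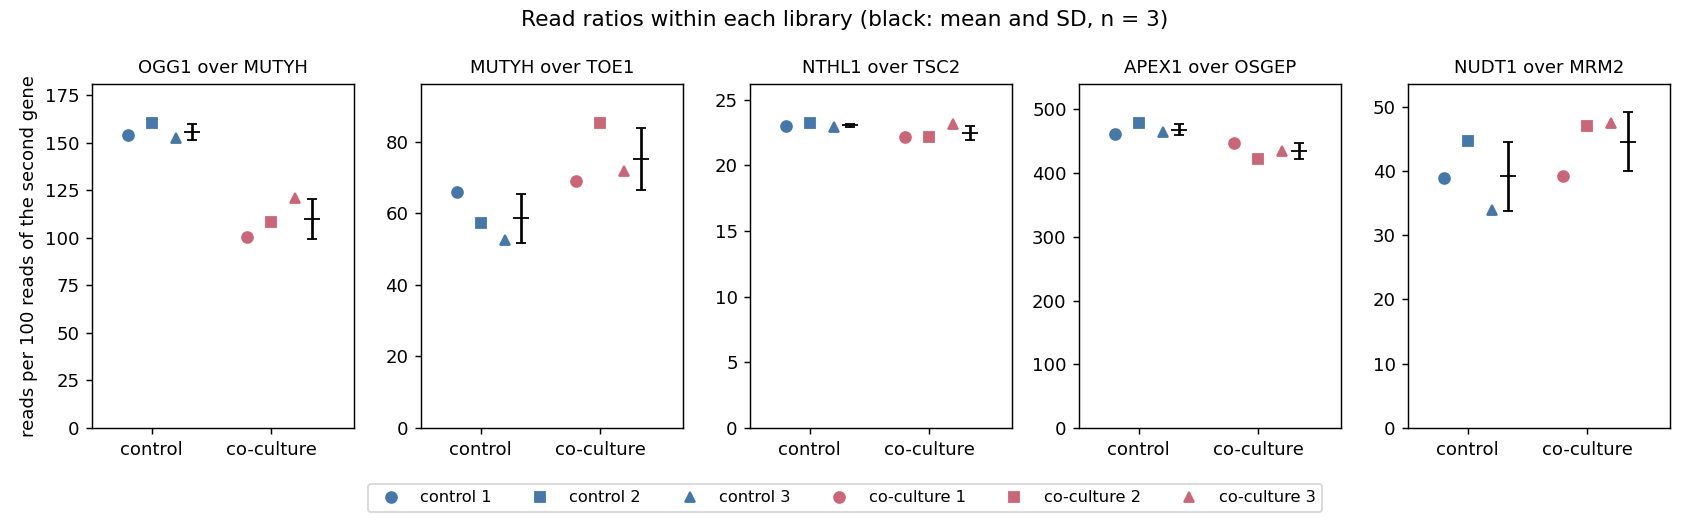
Reads of OGG1 per 100 reads of MUTYH, and of 4 members per 100 reads of their head-to-head neighbour, in each library (linear axes from 0, mean and SD of 3 in black). OGG1 over MUTYH is 101 to 121 in co-culture and 153 to 160 in the controls.

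The rest of the pathway was read from a list of 27 other genes of base excision repair and the nucleotide pool, all of which were tested. In edgeR's test 0 passed an adjusted p of 0.05 as higher (2.66% of all tested genes did) and 1 as lower (2.17%). The median log2 fold change of the list was 0.0074 and the median absolute change 0.054, beside 0.13 over all tested genes. At an unadjusted p under 0.05 there were 3 higher and 4 lower genes, against 11.7% and 11.5% of all genes. Groups did not overlap for 5 higher and 4 lower genes, against 14.3% and 15.0%.

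UNG, the glycosylase for uracil in DNA, was the gene that passed. It fell from 116, 120 and 123 CPM in controls 1, 2 and 3 to 99.4, 98.1 and 106 CPM in co-culture libraries 1, 2 and 3. The log2 fold change was -0.24 (standard error 0.06, adjusted p 0.0409 by edgeR). It was negative in all 15 alternatives, from -0.27 to -0.22, and passed in 8 of them, with adjusted p-values from 0.00200 to 0.302. Without any library other than control 1 it missed the threshold (edgeR adjusted p from 0.0576 to 0.212), and the class-adjusted value was -0.27 (edgeR adjusted p 0.302). The other 4 glycosylases outside the member list, SMUG1, TDG, MBD4 and MPG, had log2 fold changes of -0.034, -0.0036, 0.0093 and -0.0095. MPG excises alkylated bases, and TDG and MBD4 act on mismatched thymine.

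Of the 6 genes that act on the nucleotide pool, 0 passed. SAMHD1, which degrades nucleotides, had a log2 fold change of -0.20 (standard error 0.07, adjusted p 0.123 by edgeR). Its level was 58.2 ± 2.25 CPM after co-culture, against 66.8 ± 4.72 CPM in controls (SD, n = 3 each). NUDT18 had the largest value of the list, 0.57, on low levels of 4.60 (co-culture) and 3.13 (controls) CPM (standard error 0.22, adjusted p 0.160 by edgeR). DUT, NUDT5 and ITPA had log2 fold changes of -0.052, 0.011 and -0.10.

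Of the 9 genes for cleaning broken ends and for turning over ADP-ribose, 0 passed. They ran from ADPRS, which removes ADP-ribose, at -0.21 to APLF, a small end-binding scaffold, at 0.45 (edgeR adjusted p 0.146 and 0.192). APTX, an end-cleaning partner of XRCC1, had a log2 fold change of 0.0074, and PARP2, PARG and HPF1 of 0.035, -0.053 and 0.13.

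Of the 7 genes that fill and close the gap, 0 passed. LIG1, the replicative ligase that closes long patches, came closest, at 106, 118 and 123 CPM in co-culture libraries 1, 2 and 3 and 101, 93.3 and 95.6 CPM in controls 1, 2 and 3. The groups were apart, and the log2 fold change was 0.26 (standard error 0.07, adjusted p 0.0556 by edgeR). It passed with DESeq2 (adjusted p 0.0266), without a filter on low counts (edgeR adjusted p 0.0391, where 4.50% of genes passed) and without control 1 (0.00275), and its highest adjusted p was 0.586, the class-adjusted one, at a log2 fold change of 0.13. LIG3, the partner of XRCC1, had a log2 fold change of 0.054 and POLB, the main gap-filling polymerase, of 0.0023. FEN1, the flap nuclease of the long-patch branch, had -0.16 (edgeR adjusted p 0.147) and its clamp PCNA 0.0075.

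**Figure D5:**
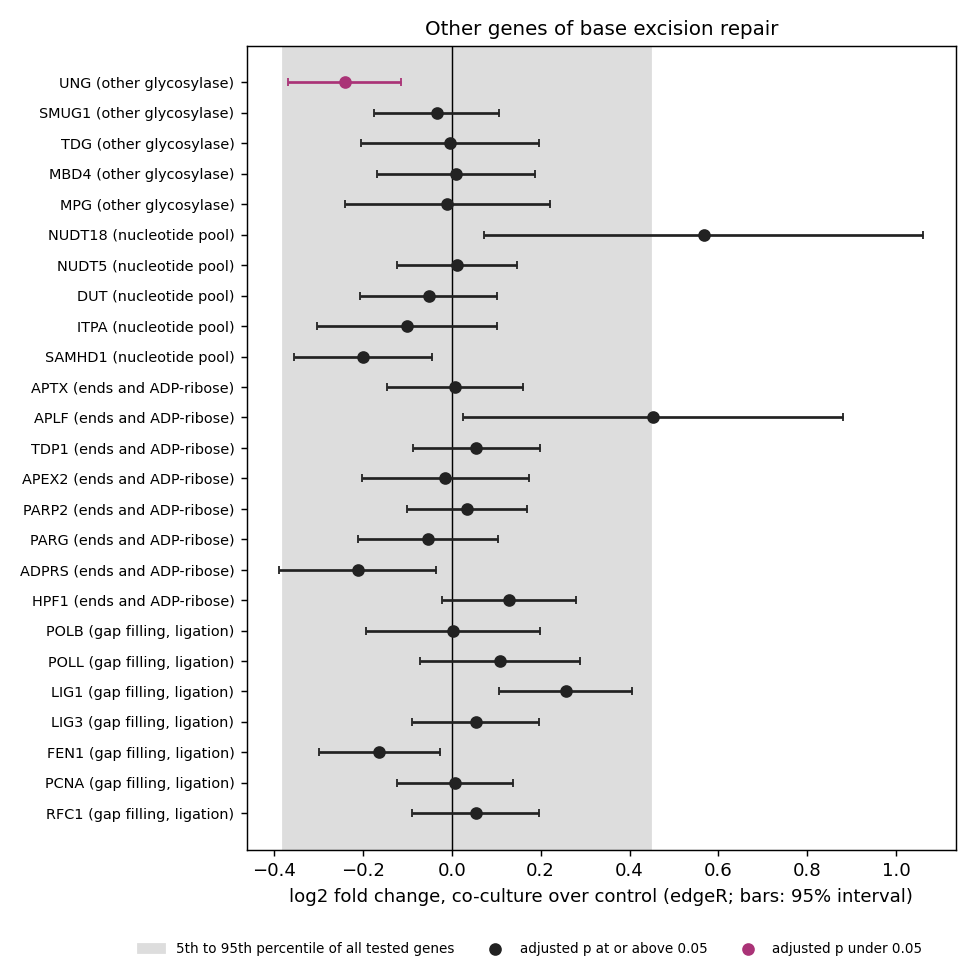
Log2 fold change of 25 of the 27 other genes of base excision repair and the nucleotide pool, co-culture over control, with 95% intervals from edgeR and the 5th to 95th percentile of all tested genes in grey. UNG, at -0.24, is the gene with an adjusted p under 0.05.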

How the data were processed

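The deposited files hold raw read counts per gene, 1 file per sample, in 3 columns (strand ignored, forward, reverse). STAR 2.53a, FastQC and the build hg18 are named in the submitters' processing notes; the annotation is not given in the sources used here. The kit was stranded, per the labels' protocols, and reverse-strand counts were used. Summary lines (unmapped 1.22% to 1.67%, multimapping 6.48% to 8.42%, no gene 14.8% to 17.7%, ambiguous 0.835% to 1.01% of reads) stayed out of library sizes.

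Counts were fitted in edgeR 4.0.16 (R 4.3.3): filterByExpr at a minimum count of 10 (14582 genes), TMM, robust quasi-likelihood F test, Benjamini-Hochberg adjustment over all tested genes, threshold 0.05. SE is the absolute log2 fold change over the square root of F, and intervals use the t distribution. Chi-square per degree of freedom within groups was 4.73 to 18.5, so no 2 libraries of a group agreed within sampling noise. Alternatives used DESeq2 1.42.0, limma 3.58.1 and other settings. The scripts were tested on simulated data. Of the list symbols, ADPRS, HPF1 and MRM2 were found under older symbols. Members, lists, the naming rule (all members, the head-to-head neighbours, and the wider genes past the threshold or the 3 with the smallest p) and tests were chosen with earlier results of these data known. Other wider genes are named after their values were seen. Of the wider list, 2 genes are counted but not reported here by name.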

Additional observations from a re-analysis of the deposited data

Results flagged for a closer look

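Reads on the strand opposite to a member were not used in the comparison. For NEIL1 and NEIL2 they were higher in every co-culture library than in every control (2 of the 7 members with at least 60 such reads, against 1.71% of genes with as many), and for XRCC1 they were lower (18.5% of genes). Those shares come from libraries of unlike strand class and are not an even reference for the members in either direction. Over NEIL1 they stood at 6.10, 4.99 and 4.89 CPM in co-culture libraries 1, 2 and 3 (mean 5.33) and at 4.30, 4.17 and 4.18 CPM in controls 1, 2 and 3. NEIL1 overlaps MAN2C1 on the opposite strand in GENCODE release 29, over 1908 bases. Over NEIL2 they stood at 1.05, 0.808 and 0.642 CPM in co-culture (mean 0.834) and at 0.556, 0.365 and 0.499 CPM in the controls, from 7 to 23 reads per library. Over XRCC1 they were lower in co-culture, at 0.801, 0.238 and 0.419 CPM against 1.82, 1.20 and 1.53 CPM in the controls. The median share of reads on this strand was 0.124% and 0.211% in co-culture libraries 2 and 3 and between 1.57% and 1.76% in the other 4, and its part in these values was not tested. None of the 3 differences was tested.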

How the results depend on the processing

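There were 15 alternatives to the fit with all 6 libraries. The number of members past the threshold, 0, became 1 with DESeq2 and 1 with total counts, and ran from 0 to 4 when 1 library was left out. The number of wider genes, 1, became 2 with DESeq2 and 2 without a low-count filter, 0 with the replicate block and 0 with the strand class term, and ran from 0 to 7 when 1 library was left out. The number of all genes, 704, became 164 with the replicate block and 29 with the strand class term, and ran from 65 (without control 2) to 3069 (without control 1). Total counts moved the share of higher genes among those that passed from 55.1% to 35.1%. Signs changed for NTHL1 with the strand class term (-0.026) and without co-culture 3 (range with 1 library left out -0.0044 to 0.088), for APEX1 with the strand class term (0.050) and with 1 library left out (-0.079 to 0.046), and for NUDT1 with the strand class term (-0.056). The other 7 members kept their sign in all 15. The causes were not tested. Samples with the same replicate number did not deviate together from their group means (correlations of -0.042, -0.085 and -0.091). With 3 libraries per group, which also differ in strand class, this cannot decide whether the numbers pair the samples. With 163 to 1001 reads per library, the 7 members other than APEX1, XRCC1 and PARP1 are also limited by counting error.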

Other observations

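Reads opposite to PARP1, the most abundant member, followed the strand class of the libraries. They stood at 41.1 CPM in co-culture library 1 and 39.3, 40.6 and 36.6 CPM in controls 1, 2 and 3, and at 1.90 and 5.81 CPM in co-culture libraries 2 and 3.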
